A study of Mus musculus with 12 samples.

Results

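The transition from the early to the late response of wild-type follicular B cells to crosslinking of their antigen receptor was examined on 4 of the 12 arrays of a study of Zfx, an X-linked zinc finger transcription factor. The 4 arrays are the pair titled as wild type at 12 h and the pair titled as wild type at 2 h, and every probe set was compared between them. The 12 h group is mature follicular B cells of 8-week-old male 129SvEv mice of the ZFXwt genotype, sorted from the spleen by a B220+ AA4.1- CD23hi CD21int gate and kept for 12 h with 10 µg/mL of an antibody to IgM. The 2 h group is the same kind of cell after 2 h with the same dose of antibody. The 0 h arrays of the same genotype (2 arrays) and the arrays of the ZFXcko genotype at 0, 2 and 12 h (2 arrays each) came from mice of the same strain, sex and age and were used for comparison. The labels do not say which Cre or promoter made the cko mice, nor how many mice gave the cells. They state that labelled RNA was hybridised in duplicate, so whether the 2 arrays of a group carry separate mice, separate cultures or 1 RNA is not given. The p-values below therefore measure the spread between arrays, which may be technical.

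Crosslinking of surface IgM activates the SRC family kinase LYN and the kinase SYK, and from there phospholipase C gamma, the RAS and MAP kinase pathway, calcium and calcineurin, NF-κB and phosphoinositide 3-kinase. The first genes to respond are induced without new protein synthesis and encode transcription factors of the FOS, EGR and NR4A families, MYC, feedback phosphatases and chemokines, most of them with short-lived mRNAs. Over the following hours a B cell leaves quiescence, grows, raises its mitochondrial mass and its lipid synthesis, and approaches the first S phase.

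The values are scanner signals on a linear scale, deposited with the same trimmed mean on every array. They were taken as log2(signal + 16), and each gene is represented by its brightest probe set. A difference is the 12 h value minus the 2 h value on that log2 scale, so a value below 0 is lower at 12 h. A gene is called, and is said to have risen or fallen, at a Benjamini-Hochberg adjusted p under 0.05 in a limma fit to all 12 arrays. On this scale the change of a dim gene is understated. Bulk RNA cannot tell fewer cells of a type from less RNA per cell.

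The control probes of the arrays fell into 2 sets. The signal of the 5′ actin probe set was 2.11 and 2.27% of the 3′ one on the 12 h arrays, against 8.51 and 8.41% on the 2 h arrays. The 18S RNA probe set read 10892 and 10672 at 12 h, against 1299 and 1262 at 2 h, and the BioB spike-in read 701 and 775 at 12 h, against 474 and 456 at 2 h. All 0 h arrays lay with the 12 h pair, under 5% for actin. The cko arrays of both 12 h (19.1 and 19%) and 2 h (10.6 and 10.8%) lay with the wild-type 2 h pair, above 5%. Within the wild type, time and this division of the control probes cannot be told apart. The step of the cko cells shares no array with that of the wild type and does not cross the division, and its values therefore stand beside the wild-type ones below. It has a shift of its own, since the cko actin ratio was higher at 12 h than at 2 h, the reverse of the wild type. The 5′ to 3′ ratio of the Gapdh probe sets did the same in cko cells (12.6 and 13% at 12 h, against 8.75 and 8.02% at 2 h). The text also gives values of a fit with a term for the division, in which both genotypes share 1 time effect. It called 3189 genes higher (26.2%) and 1992 lower (16.3%) at 12 h, 42.5% in all. Its difference takes the 12 h value from the cko 12 h arrays alone, and the 2 h value from the 0 h and 2 h arrays of both genotypes. The wild-type 12 h arrays do not enter that difference. It is therefore neither an adjusted wild-type step nor a check separate from the cko step.

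Of 12190 genes tested, 6981 (57.3%) were called between 12 h and 2 h. There were 4301 higher at 12 h (35.3%) and 2680 lower (22%), and 1996 of the rises and 1127 of the falls were at least 2-fold. With the 2 arrays of each group averaged to 1 value and 1 time effect for both genotypes, 1794 genes were called. The arrays of the 12 h pair did not overlap those of the 2 h pair for 9525 genes (78.1%). The median gene was 0.26 higher at 12 h. After each array was scaled to the same median this shift was 0.06, and 50.6% of the calls in place of 61.6% were rises, so a small difference in either direction depends on the scaling. In cko cells 5968 genes (49%) were called, 3683 higher (30.2%) and 2285 lower (18.7%). Of the 6981 wild-type calls, 4107 (58.8%) were called in the same direction in cko cells and 546 in the opposite one. Of the 3123 that were at least 2-fold in the wild type, 2185 (70%) had the same call in cko cells. Across genes, which are not independent replicates, the steps of the genotypes had a Pearson correlation of 0.62. Of the genes that fell in the wild type, 1093 (40.8%) had all 6 arrays above 5% for actin higher than all 6 arrays under it, as had 9.52% of all genes tested. Of the genes that rose, 1652 (38.4%) had the reverse, as had 15.3% of all genes.

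**Figure D1:**
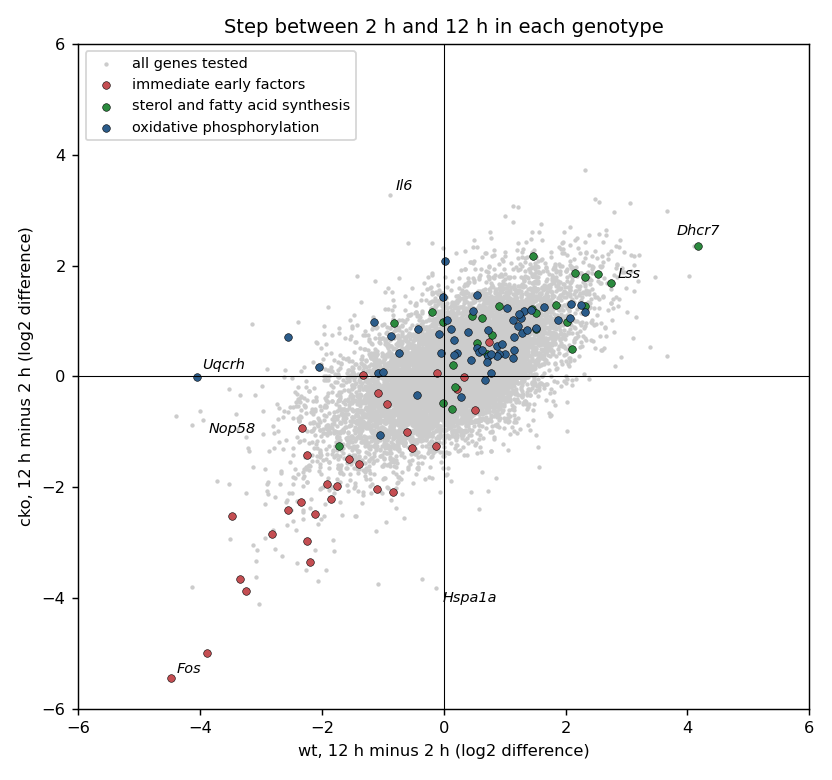
Each point is a gene, with the wild-type difference between 12 h and 2 h on the x axis and the cko difference on the y axis (both log2, 12 h minus 2 h). The immediate early factors (red) run along the diagonal at the lower left, most sterol and oxidative phosphorylation genes (green and blue) lie at the upper right, and Uqcrh and Nop58 lie far left (-4.06 and -3.96 in wild type) with cko differences of -0.02 and -0.78.

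The immediate early transcription factors were the list with the lowest median. Of 31 members, all tested, 25 fell and 4 rose, with a median of -1.76 against 0.26 for all genes, and 23 of the falls were also called in cko cells, where the median was -1.95. With the term for the division 26 fell and 0 rose. Fos, the AP-1 subunit that pairs with JUN proteins, read 295 and 289 at 12 h, against 7236 and 6465 at 2 h. Both 12 h arrays lay far below both 2 h arrays, a difference of -4.48 (SE 0.07, adjusted p = 3.1e-14), and the cko difference was -5.45. Fos was already high before stimulation (11104 and 11778 at 0 h), so that its log2 difference from 0 h was -0.74 at 2 h and -5.22 at 12 h. Fosb, a second FOS protein, had the same order, with -1.53 at 2 h and -3.73 at 12 h against 0 h and a difference of -2.20 between 12 h and 2 h.

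A second group of early factors was induced by 2 h and came back. Maff, a small MAF protein that binds DNA without an activation domain, read 263 and 195 at 12 h, against 3569.5 and 3606 at 2 h, a difference of -3.89 (SE 0.14, adjusted p = 4.9e-11). Its log2 difference from 0 h was 3.98 at 2 h and 0.08 at 12 h, so that the late level lay near the starting one. Myc, the transcription factor of growth and ribosome synthesis, read 393 and 426 at 12 h, against 4869.6 and 4505 at 2 h. The groups did not overlap, the difference was -3.47 (SE 0.12, adjusted p = 3.0e-11), and against 0 h Myc was 3.55 at 2 h and 0.08 at 12 h. Its cko difference was smaller, -2.52, and the genotypes differed (cko step minus wild-type step 0.95, adjusted p = 6.2e-04 in limma). In Myc all 6 arrays above 5% for actin were higher than all 6 under it. Nr4a2 and Nr4a3, orphan nuclear receptors of the early response, fell in both genotypes, Nr4a2 with -3.24 in wild type and -3.87 in cko and Nr4a3 with -3.34 in wild type and -3.66 in cko. Nr4a3 read 796 and 928 at 12 h, against 8701 and 8942 at 2 h, and it was still 2.76 above 0 h at 12 h. Nr4a1, also called NUR77 and used as a reporter of receptor signalling, read 1814 and 1831 at 12 h, against 7939 and 7921 at 2 h, a difference of -2.11 (SE 0.06, adjusted p = 1.1e-11), and stood 0.42 above 0 h at 12 h.

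The EGR family split. Egr1, the zinc finger factor induced through ERK and serum response factor, read 2944 and 2921 at 12 h, against 10175 and 9775 at 2 h, a difference of -1.76 (SE 0.06, adjusted p = 3.0e-11), with -1.97 in cko cells. Egr3 fell in both genotypes (-0.52 in wild type and -1.29 in cko). Egr2 went the other way and read 8682 and 9453 at 12 h, against 6995 and 5736 at 2 h, a difference of 0.52 (SE 0.12, adjusted p = 0.0017), to 3.89 above 0 h. In cko cells Egr2 was called lower (-0.61), and with the term for the division it was -0.49. For both Egr2 and Egr3 a second probe set was called in the direction opposite to the one used. The other 3 members that rose did so by small amounts, Zfp36l1 (0.21, but -0.07 after quantile normalization), an mRNA decay factor, Srf (0.33), the serum response factor itself, and Jund (0.75), the JUN protein associated with resting cells. In cko cells Jund was also called higher (0.62), Srf was not called (-0.01) and Zfp36l1 was called lower (-0.23), and none of the 3 was called higher with the term for the division.

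**Figure D2:**
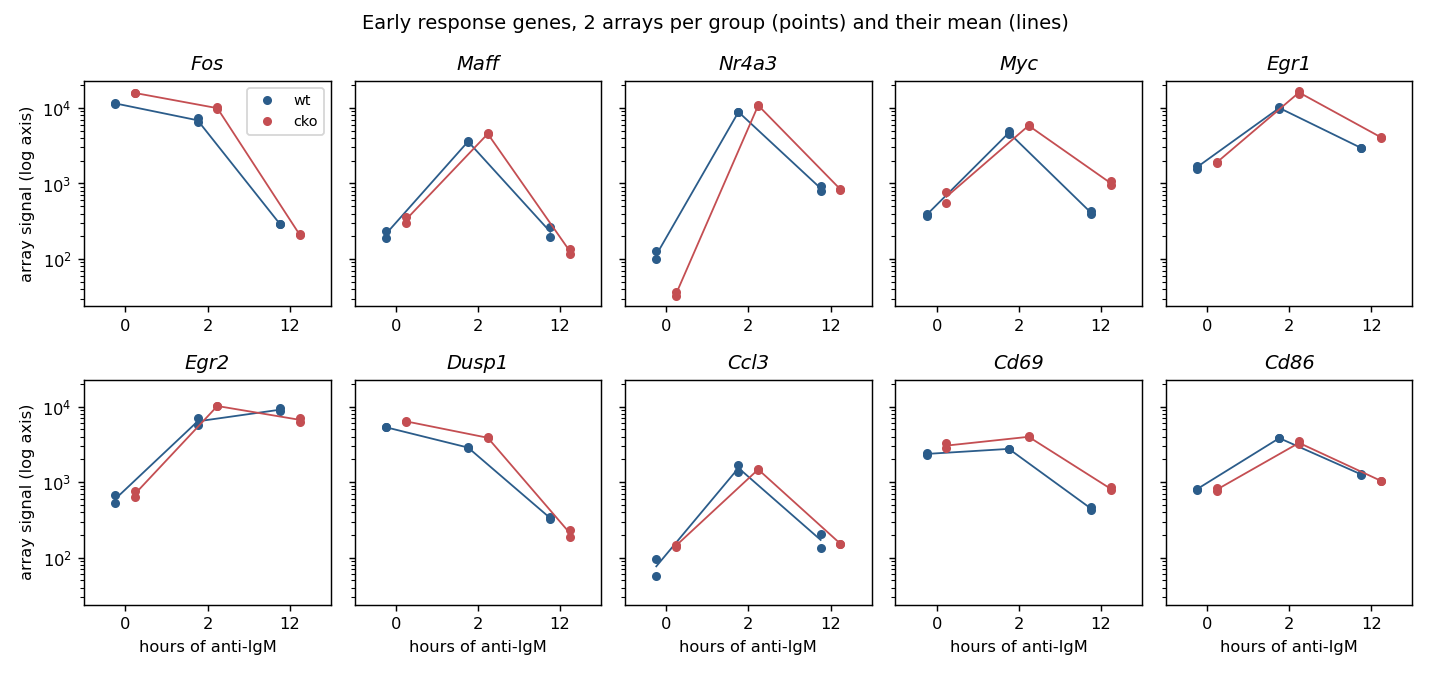
Array signal (log axis) of 10 early response genes at 0, 2 and 12 h of anti-IgM, with a point for each array, a line through the means, and both genotypes. All genes shown except Egr2 in wild type are lower at 12 h than at 2 h in both genotypes, and Fos, Dusp1 and Cd69 end below their 0 h level.

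The promoters of 3 of these genes are shown because they hold the letters of sites to which early response factors bind. The sequences are the RefSeq bases on GRCm38.p6, the 250 before the gene start, read 5′ to 3′ on the strand of the gene. Capitals mark TGACG, the core of a cAMP response element, on either strand in Fos and Nr4a1 (in Nr4a1 it stands on the other strand and reads CGTCA), its full form TGACGTCA in Maff, and the EGR motif GCGNGGGCG on either strand in Nr4a1 and Maff. TGACGTCA contains TGACG, the capitals of the cAMP and EGR motifs do not overlap, and the fall of each gene between 12 h and 2 h is given above.
Fos, chr12:85473640-85473889, plus strand: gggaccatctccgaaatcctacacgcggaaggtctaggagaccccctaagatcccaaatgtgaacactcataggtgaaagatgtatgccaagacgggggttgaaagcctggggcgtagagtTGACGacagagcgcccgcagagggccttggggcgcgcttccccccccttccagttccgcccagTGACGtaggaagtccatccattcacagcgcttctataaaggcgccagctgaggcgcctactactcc
Nr4a1, chr15:101266596-101266845, plus strand: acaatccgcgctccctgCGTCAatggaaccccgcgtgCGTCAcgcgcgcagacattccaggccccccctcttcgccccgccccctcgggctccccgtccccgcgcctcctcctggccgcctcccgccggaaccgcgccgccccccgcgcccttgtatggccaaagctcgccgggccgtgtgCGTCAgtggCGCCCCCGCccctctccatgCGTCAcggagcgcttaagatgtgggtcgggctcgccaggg
Maff, chr15:79347270-79347519, plus strand, 1 of 3 annotated starts: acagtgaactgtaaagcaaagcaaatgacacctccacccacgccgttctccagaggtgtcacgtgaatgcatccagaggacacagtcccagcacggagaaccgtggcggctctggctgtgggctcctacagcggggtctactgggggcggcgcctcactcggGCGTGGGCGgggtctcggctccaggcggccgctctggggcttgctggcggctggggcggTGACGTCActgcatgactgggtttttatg
Of the 31 early factors 23 had a promoter entry. TGACG stood in 15 of them (65.2%), against 19.8% of the 27025 genes with an entry. GCGNGGGCG stood in 10 (43.5%), against 5.33% of all genes, and TGACGTCA in 2. For oxidative phosphorylation subunits with an entry the shares were 36.2% for TGACG and 2.13% for GCGNGGGCG. For sterol and fatty acid genes they were 33.3% and 9.52%. A gene with several entries was counted if any of them held the motif. These matches describe letters in the window and are not evidence of binding in these cells.

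Genes that restrain MAP kinase signalling fell more often than they rose. Of 15 tested, 9 fell and 2 rose (median -0.70), 10 fell in cko cells, and 10 fell with the term for the division. Dusp1, a nuclear phosphatase of p38, JNK and ERK, read 323 and 344 at 12 h, against 2881 and 2843 at 2 h, a difference of -3.04 (SE 0.09, adjusted p = 7.4e-12). Like Fos it was high at 0 h (5305 and 5332), and its log2 difference from 0 h was -3.93 at 12 h. Dusp2 (-1.39) and Dusp5 (-1.39), nuclear phosphatases of ERK, and Errfi1 (-1.15), an inhibitor of the EGF receptor, also fell in both genotypes. The 2 members that rose, Spry1 (0.66) and Spred1 (0.98), both inhibitors of the step from receptor to RAF, were not called in cko cells (0.18 and -0.05).

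Genes of NF-κB signalling, a pathway of survival and activation downstream of the receptor, moved both ways. Of 20 tested, 12 fell and 6 rose (median -0.60), and 11 of the falls were called in cko cells too. The nuclear IκB proteins Nfkbid (-2.23 in wild type and -1.62 in cko) and Nfkbiz (-1.80 in wild type and -2.02 in cko) fell in both genotypes. Tnfaip3, the ubiquitin editing enzyme A20, read 1349 and 1319 at 12 h, against 6276 and 6247 at 2 h, a difference of -2.22 (SE 0.08, adjusted p = 3.3e-11), and at 12 h its difference from 0 h was 0.01, not called. Traf1, an adaptor of TNF receptors, fell in both (-2.06 in wild type and -0.87 in cko). Irf4, which NF-κB induces and which is needed for activation and plasma cell fate, fell (-0.47, and -1.32 in cko) and remained 1.45 above 0 h. The 6 that rose were Nfkb2 (1.20), the p100 precursor of the noncanonical pathway, the inhibitors Nfkbie (1.03) and Nfkbia (0.42, -0.22 after quantile normalization), Tnip1 (0.71), a partner of A20, Ebi3 (0.32), a cytokine subunit, and Rela (0.29). In cko cells Ebi3 was also called higher (1.15), Tnip1 and Nfkbia were not called, and Nfkb2 (-0.42), Nfkbie (-0.20) and Rela (-0.20) were called lower.

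Secreted factors fell more often than they rose. Of 19 tested, 12 fell and 2 rose (median -0.93), and 8 of the falls were called in cko cells. Ccl3, a chemokine for T cells and monocytes, read 207 and 136 at 12 h, against 1708 and 1363 at 2 h, a difference of -3.06 (SE 0.21, adjusted p = 1.6e-08). Against 0 h it was 4.09 at 2 h and 1.02 at 12 h. Ccl4, its neighbour in the same chemokine family, fell in both genotypes (-2.51 in wild type and -2.41 in cko). Cxcl2 (-3.09), a neutrophil chemokine, and Il1b (-2.77) also fell in both genotypes, and both had averaged 886 and 384 at 0 h, in that order. Myeloid cells are the usual source of both. Ccl22, a ligand of CCR4 on helper T cells, appeared late and read 200.1 and 208 at 12 h, against 21.6 and 22 at 2 h, a difference of 2.54 (SE 0.26, adjusted p = 1.3e-06), with 2.57 in cko cells. Its 0 h arrays read 19.5 and 40.2, so it was low at both earlier times and high at 12 h only. Il16, a ligand of CD4 that resting lymphocytes carry, also rose (1.11 in wild type and 0.85 in cko), and its difference from 0 h was still -1.85 at 12 h.

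Il6, a cytokine of B cell help and inflammation, was low in both wild-type groups, 6.4 and 1.3 at 12 h, against 18.3 and 23.1 at 2 h, whereas cko cells read 193 and 188 at 12 h, against 6 and 4.8 at 2 h. Without its cko 12 h arrays Il6 had a mean below the filter on dim signals, so it was tested because of the group in which it is high, and its differences (-0.89 in wild type and 3.27 in cko) are given as a description.

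Surface molecules of activation fell more often than they rose. Of 18 costimulatory and activation molecules tested, 10 fell and 1 rose (median -0.74, and -0.77 in cko), and with the term for the division 11 fell and 0 rose. Cd69, the lectin that holds activated lymphocytes in lymphoid tissue, read 469.6 and 421 at 12 h, against 2749.6 and 2750.4 at 2 h, a difference of -2.59 (SE 0.09, adjusted p = 1.9e-11), and ended -2.36 against 0 h. Cd86, the ligand of CD28, read 1251 and 1265 at 12 h, against 3819 and 3815 at 2 h, a difference of -1.59 (SE 0.07, adjusted p = 2.4e-10), and stayed 0.63 above 0 h. Cd274 and Pdcd1lg2, the ligands of PD-1, fell in both genotypes, Cd274 with -2.41 in wild type and -3.36 in cko and Pdcd1lg2 with -2.47 in wild type and -1.94 in cko. Icosl, the ligand of ICOS, was the member that rose (0.59), and in cko cells it was -0.43 and not called. Cd83, a marker of activated B cells, was not called in wild type (0.00) and fell in cko (-1.13), and the steps differed (adjusted p = 2.2e-07 in limma).

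Receptors that place B cells in the follicle changed in both directions. Of 17 tested, 7 fell and 7 rose (median 0.08, -0.12 with arrays scaled to 1 median, and -1.19 in cko), and all 7 falls and 6 of the 7 rises were called in the same direction in cko cells. The falls were Cxcr5, the follicle homing receptor (-1.48 in wild type and -1.52 in cko), Ccr7, which draws activated cells to the T zone (-1.36 in wild type and -1.19 in cko), Cxcr4 (-1.30 in wild type and -1.73 in cko), S1pr1, the egress receptor (-1.05 in wild type and -1.32 in cko), Gpr183, which steers cells to the follicle edge (-0.95 in wild type and -2.62 in cko), the cannabinoid receptor Cnr2 (-1.42 in wild type and -1.49 in cko) and Rgs1, a brake on chemokine receptors (-1.44 in wild type and -2.52 in cko). Cxcr5 read 629 and 616 at 12 h, against 1631 and 1914 at 2 h, and its pairs of arrays did not overlap. Rgs14 (1.12 in wild type and 0.81 in cko) and Rgs16 (0.82 in wild type and 1.93 in cko), regulators of G protein signalling, had the largest rises of the list. Gpr183 was lower at 12 h than at 2 h but still 0.64 above 0 h.

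Genes linked to quiescence did not return together. Of 28 tested, 13 fell and 9 rose, while against 0 h 20 were lower at 2 h and 24 at 12 h. Of all genes 36.2% were lower and 23.5% higher than at 0 h at 2 h (59.7% in either direction), and 23.1% lower and 24.8% higher at 12 h (47.9% in either direction). Klf4, a Krüppel-like factor that holds B cells out of cycle, read 69 and 102 at 12 h, against 1755 and 1733 at 2 h, a difference of -4.14 (SE 0.12, adjusted p = 9.1e-12), with -3.80 in cko. Against 0 h it was -0.11 at 2 h, not called, and -4.25 at 12 h. The antiproliferative genes Tob1 (-2.45 in wild type and -1.84 in cko) and Tob2 (-2.30 in wild type and -1.80 in cko) fell in both genotypes, as did Pik3ip1 (-2.01 in wild type and -2.01 in cko), an inhibitor of phosphoinositide 3-kinase. Klf2, which sets trafficking receptors in resting lymphocytes, was -2.23 at 2 h and -3.16 at 12 h against 0 h, and fell between them (-0.93). The 9 that rose were Klf13 (1.42), Pdk1 (0.91), Foxo1 (0.89), Cdkn1b (0.85), Klf7 (0.79), Ypel3 (0.54), Sesn3 (0.38), Sesn1 (0.30) and Foxp1 (0.15, but -0.05 with arrays scaled to 1 median). Foxo1, the factor that phosphoinositide 3-kinase signalling excludes from the nucleus, read 1510.3 and 1298 at 12 h, against 769.6 and 724 at 2 h, and its 12 h level was still -1.43 against 0 h. Cdkn1b, the CDK inhibitor p27, rose in wild type but fell in cko (-0.66).

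Genes of ribosome synthesis fell more often than they rose, and nearly all stayed above 0 h. Of 41 tested, 20 fell and 9 rose between 12 h and 2 h (median -0.18), while against 0 h 39 were higher at 2 h and 40 at 12 h. In cko cells 26 fell (median -0.47), and with the term for the division 24 fell and 2 rose. Nop58, a box C/D snoRNP protein, read 219 and 226 at 12 h, against 3523 and 3855 at 2 h, a difference of -3.96 (SE 0.13, adjusted p = 2.3e-11), but in cko cells 2666 and 2766 at 12 h, against 4546 and 4811 at 2 h, a difference of -0.78. For Nop58, Nop14 (-3.25 in wild type and -1.09 in cko) and Nop16 (-2.42 in wild type and -0.46 in cko), which serve ribosomal RNA processing and assembly, the steps of the genotypes differed (adjusted p = 7.0e-08, 1.7e-04 and 1.5e-07 in limma). Polr1b, a subunit of RNA polymerase I, fell in both (-1.89 in wild type and -1.0 in cko). In 15 of the 41 genes all 6 arrays above 5% for actin were higher than all 6 under it. Nolc1 (-1.34 in wild type and -1.51 in cko), a nucleolar scaffold, and Gnl3 (-0.97 in wild type and -0.99 in cko), nucleostemin, fell in both genotypes. The 9 that rose were Polr1a (1.10), Nop10 (1.07), Heatr1 (0.72), Mybbp1a (0.67), Polr1c (0.45), Utp20 (0.43), Nop2 (0.41), Bop1 (0.32) and Nhp2 (0.23, but -0.21 after quantile normalization), and of these Polr1a and Nop10 were also called higher in cko cells, while Polr1c, Nop2 and Bop1 were called lower there.

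Among genes of the integrated stress response, serine and one-carbon metabolism and amino acid uptake, 13 of 29 tested fell and 7 rose (median -0.53). Ppp1r15a, the GADD34 subunit that dephosphorylates eIF2α, fell in both genotypes (-2.31 in wild type and -2.58 in cko). Slc7a1, the arginine and lysine transporter, read 3836 and 3800.3 at 12 h, against 10117 and 9999 at 2 h, a difference of -1.39 (SE 0.06, adjusted p = 1.3e-10), with -1.34 in cko cells. Shmt1, the cytosolic serine hydroxymethyltransferase, fell too (-1.70 in wild type and -1.63 in cko). Cebpb (-3.52 in wild type and -0.22 in cko) and Atf4 (-1.93 in wild type and -0.54 in cko), transcription factors of this response, had steps that differed between the genotypes (adjusted p = 4.5e-07 and 7.8e-08 in limma). In 8 of the 29 genes, these among them, all 6 arrays above 5% for actin were higher than all 6 under it. The 7 that rose were Phgdh (2.05), the first enzyme of serine synthesis, Shmt2 (0.95), Ddit4 (0.92), an inhibitor of mTORC1, Mthfd1 (0.67), Aldh18a1 (0.66), Psat1 (0.65) and Asns (0.28). Phgdh read 6044 and 6419 at 12 h, against 1544 and 1451 at 2 h, and its cko difference was 1.18.

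Lipid synthesis had the highest median of the lists. Of 27 sterol and fatty acid genes tested, 19 rose and 2 fell, and all 19 rises were also called in cko cells. The median was 0.91 in wild type and 1.06 in cko cells, against 0.26 and 0.10 for all genes. With the term for the division 22 rose and 2 fell. Against 0 h, 14 of the 27 were lower at 2 h and 21 were higher at 12 h.

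The rises ran through most of the route to cholesterol. Hmgcs1, which makes HMG-CoA, read 18021 and 18682 at 12 h, against 6848 and 6683 at 2 h, a difference of 1.44 (SE 0.05, adjusted p = 4.5e-11). Mvk, Pmvk and Mvd, which turn mevalonate into isopentenyl diphosphate, rose by 2.31, 2.32 and 2.10, and by 1.79, 1.27 and 0.49 in cko cells. Fdft1, the squalene synthase, read 2372 and 2496 at 12 h, against 535 and 533 at 2 h, a difference of 2.15 (SE 0.08, adjusted p = 3.2e-11). Lss, the lanosterol synthase that closes the sterol rings, read 828 and 865 at 12 h, against 105 and 121 at 2 h, a difference of 2.75 (SE 0.12, adjusted p = 2.2e-10), with 1.68 in cko cells. Dhcr7, the reductase of the last step, had the largest rise of all genes tested and read 590 and 436 at 12 h, against 17.4 and 9.1 at 2 h, a difference of 4.18 (SE 0.37, adjusted p = 2.3e-07). The 2 h signals of Dhcr7 were as small as the constant of 16 that was added before the log, and its 0 h arrays read 225 and 528, so that it was -3.64 at 2 h and 0.53 at 12 h against 0 h. Among the middle enzymes Idi1 (0.79), Sqle (0.91), Cyp51 (0.71), Nsdhl (1.51), Hsd17b7 (1.84), Tm7sf2 (1.46) and Sc5d (0.46) rose, while Fdps (-0.19) and Ebp (-0.02) were not called in the wild type.

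For fatty acids, Acly, which supplies cytosolic acetyl-CoA, Acaca, the acetyl-CoA carboxylase, and Elovl6, an elongase, rose by 1.52, 2.02 and 2.53. Fasn, the fatty acid synthase, was not called (0.19). The regulator Srebf2, which drives sterol genes, rose by 0.63 in wild type and 1.06 in cko, and Insig1, which retains it in the endoplasmic reticulum, was not called in the wild type (0.14). The 2 falls were Scd1 (-1.72 in wild type and -1.25 in cko), the stearoyl-CoA desaturase, and Msmo1 (-0.81 in wild type and 0.97 in cko), a sterol demethylase whose direction was opposite in the genotypes.

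**Figure D3:**
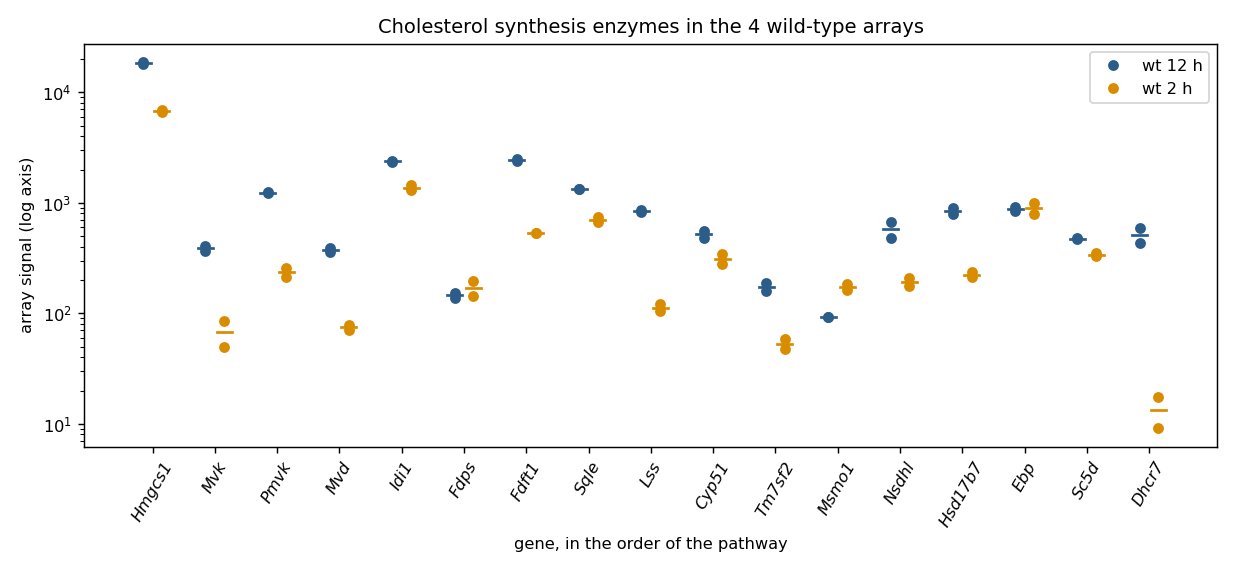
Array signal (log axis) of the cholesterol synthesis enzymes tested, in the order of the pathway, with the 2 arrays of wild type at 12 h (blue) left of the 2 arrays at 2 h (orange) and bars at the means. The pairs do not overlap for 15 of the 17 enzymes, with Fdps and Ebp the exceptions, as they do not for 78.1% of all genes tested. Msmo1 is the enzyme whose 12 h arrays lie below those of 2 h.

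Mmab, an enzyme of cobalamin metabolism, had the third largest rise of all genes tested, with 643 and 512 at 12 h, against 23.8 and 17.5 at 2 h and a difference of 4.02 (SE 0.25, adjusted p = 8.5e-09). It stands head to head with Mvk, the mevalonate kinase gene, and the RefSeq starts of the 2 genes are 242 bases apart on chromosome 5. The stretch between them is printed below with the promoter of Hmgcs1, because these genes rose together. The bases are the 250 before the start on GRCm38.p6, 5′ to 3′ on the plus strand, and capitals mark CCAAT, a box to which NF-Y binds, on either strand, and in Hmgcs1 also the sterol response element TCACNCCAC. The capitals of the 2 motifs do not overlap.
Hmgcs1, chr13:119690101-119690350, plus strand: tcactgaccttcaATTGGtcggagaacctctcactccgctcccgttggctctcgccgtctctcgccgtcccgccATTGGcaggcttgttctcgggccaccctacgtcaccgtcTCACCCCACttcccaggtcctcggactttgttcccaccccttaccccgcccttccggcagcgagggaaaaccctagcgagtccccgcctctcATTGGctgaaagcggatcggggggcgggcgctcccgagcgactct
Mvk and, on the other strand, Mmab, chr5:114444019-114444268, plus strand: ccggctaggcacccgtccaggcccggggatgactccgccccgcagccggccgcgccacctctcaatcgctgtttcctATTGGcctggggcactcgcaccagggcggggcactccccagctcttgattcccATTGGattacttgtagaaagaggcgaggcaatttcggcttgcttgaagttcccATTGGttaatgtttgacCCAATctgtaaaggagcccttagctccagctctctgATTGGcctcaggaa
CCAAT stood in 18 of the 21 sterol and fatty acid genes with a promoter entry (85.7%), against 37.5% of all genes. TCACNCCAC stood in 1 of the 21 and in 1.22% of all genes. A motif of this length that is absent from a window of 250 bases says nothing of the factor.

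Subunits of oxidative phosphorylation, the electron transport chain and ATP synthase, formed the largest list and gave the largest number of rises. Of all genes tested 35.3% rose and 22% fell. Of the 58 subunits tested, 39 rose and 10 fell (median 0.69), against 48 higher and 2 lower in cko cells (median 0.71). With the term for the division 41 rose and 2 fell. The median stood at 0.24 when all probe sets of a gene were averaged. Complex I gave the largest rises, with Ndufa12 (2.32 in wild type and 1.16 in cko), Ndufv1 (2.25 in wild type and 1.29 in cko), which carries the NADH site, and Ndufs8 (2.09 in wild type and 1.30 in cko), an iron-sulphur subunit. Ndufv1 read 7461 and 7826 at 12 h, against 1613 and 1567 at 2 h, a difference of 2.25 (SE 0.06, adjusted p = 4.0e-12). Cox6b1, of complex IV, read 30272 and 29085 at 12 h, against 13023 and 12360 at 2 h (1.22), and Atp5d, of the ATP synthase, read 23429 and 24648 at 12 h, against 9519 and 9048 at 2 h (1.37). Both pairs were apart, and both genes rose in cko cells (0.91 and 0.83).

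Of the 10 subunits that fell, 1 was also called lower in cko cells. Uqcrh, the hinge protein of complex III, read 252 and 259.8 at 12 h, against 4462 and 4562 at 2 h, a difference of -4.06 (SE 0.12, adjusted p = 8.1e-12), while cko cells read 4367 and 4556 at 12 h, against 4379 and 4663 at 2 h, a difference of -0.02. Ndufs4 (-2.56 in wild type and 0.71 in cko), Ndufa4 (-1.14 in wild type and 0.99 in cko), Atp5o (-0.87 in wild type and 0.73 in cko), Ndufa6 (-0.74 in wild type and 0.43 in cko) and Atp5e (-0.43 in wild type and 0.86 in cko) fell in wild type and rose in cko cells. A second probe set of Atp5o was called higher in the wild type. Sdhd (-2.05 in wild type and 0.17 in cko), Ndufs1 (-1.08 in wild type and 0.07 in cko) and Atp5b (-1.0 in wild type and 0.08 in cko) were not called in cko. Cox7c fell in both (-1.05 in wild type and -1.05 in cko).

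**Figure D4:**
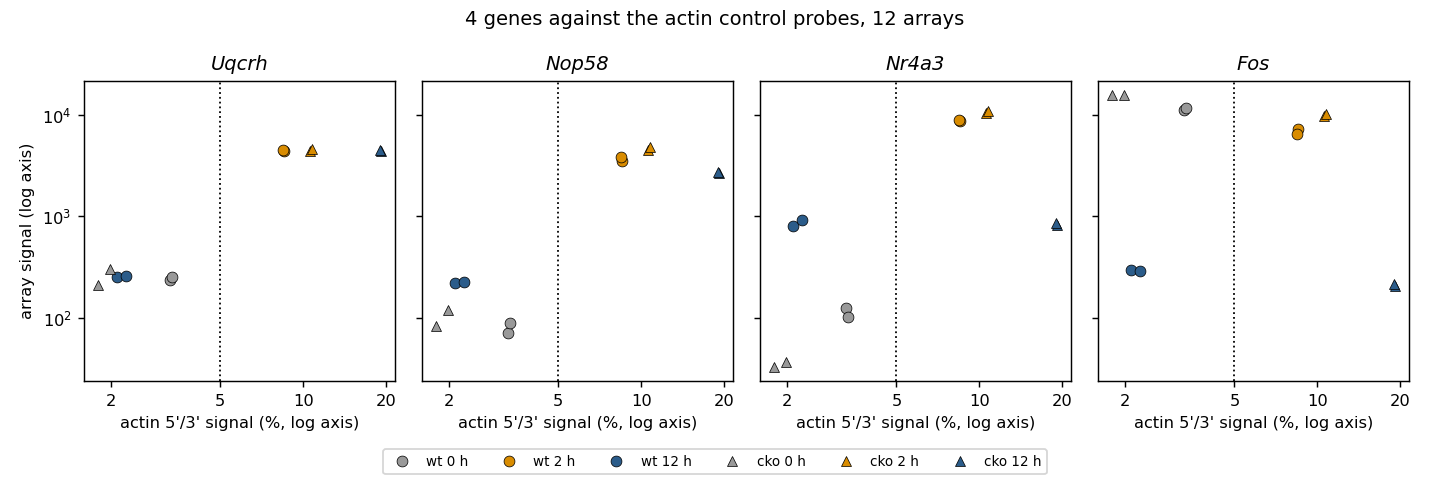
Signal (log axis) of 4 genes on the 12 arrays against the 5′ to 3′ actin signal of the array in percent (log axis), with the dotted line at 5% and a symbol for each genotype and time. Uqcrh and Nop58 are high on all 6 arrays right of the line and low on the 6 left of it, whereas Nr4a3 and Fos are low at 12 h in cko cells, right of the line, as in wild-type cells, left of it.

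Proteins of the mitochondrial ribosome gave 23 rises and 10 falls among 40 tested (median 0.43), and 26 rises and 2 falls in cko cells (median 0.48). Against 0 h, 21 were higher at 2 h and 35 at 12 h. Mrpl2 (2.16 in wild type and 0.87 in cko), Mrps14 (1.67 in wild type and 0.99 in cko) and Mrpl11 (1.66 in wild type and 1.38 in cko) had the largest rises. The falls were led by Mrpl32 (-2.38 in wild type and -0.80 in cko) and Mrpl50 (-1.94 in wild type and 0.00 in cko), and the other 8 were Mrps33 (-0.71), Mrpl27 (-0.46), Mrps2 (-0.35), Mrpl35 (-0.34), Mrpl16 (-0.32), Mrps18b (-0.30), Mrps30 (-0.23) and Mrpl46 (-0.19). Of the 10, Mrpl32 alone fell in cko cells. With all probe sets of a gene averaged the list's median was -0.01, so its direction rests on the choice of probe set.

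Of 32 proteasome subunits 17 rose and 7 fell (median 0.20, which was 0.00 with arrays scaled to 1 median). In cko cells 25 rose and 2 fell (median 0.46), and against 0 h 24 were higher at 2 h and 31 at 12 h. Psmb3 (1.91 in wild type and 1.27 in cko) and Psmb6 (1.55 in wild type and 0.64 in cko), subunits of the inner ring of the core particle, rose most. Psmb3 read 20093 and 22174 at 12 h, against 5419 and 5833 at 2 h, a difference of 1.91 (SE 0.07, adjusted p = 8.0e-11). The 7 that fell were Psma4 (-1.12 in wild type and 0.30 in cko), Psma7 (-1.11 in wild type and 0.31 in cko), Psmb7 (-0.98 in wild type and 0.95 in cko), Psma1 (-0.86 in wild type and 0.36 in cko), Psmd12 (-0.66 in wild type and -0.11 in cko), Psmd6 (-0.63 in wild type and 0.52 in cko) and Psmd11 (-0.20 in wild type and -0.13 in cko). The first 4 of these and Psmd6 were called higher in cko cells.

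Glycolysis genes rose more often than they fell in the wild type. Of 16 tested, 10 rose and 3 fell (median 0.81), against 7 and 6 in cko (median -0.02), and with the term for the division 6 rose and 6 fell. Aldoc, an aldolase (2.07 in wild type and 2.70 in cko), and Pfkl, a phosphofructokinase subunit (1.59 in wild type and 0.86 in cko), rose in both genotypes. Hk1, a hexokinase, rose in wild type and was not called in cko (1.56 in wild type and -0.13 in cko, cko step minus wild-type step -1.69, adjusted p = 4.3e-05 in limma). The lactate exporter Slc16a1 read 398 and 351 at 12 h, against 2044 and 2075 at 2 h, a difference of -2.41 (SE 0.13, adjusted p = 1.9e-09) with -2.25 in cko. The glucose transporter Slc2a1 (-0.63 in wild type and -0.94 in cko) and Pgam1 (-0.59 in wild type and -0.41 in cko) fell too.

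Genes of DNA replication and S phase gave 15 rises and 8 falls among 38 tested. Thus 60.5% were called, close to the 57.3% of all genes. The list's median was 0.18, against 0.26 for all genes. It was -0.02 with arrays scaled to 1 median and -0.18 with probe sets averaged. Pold1, the catalytic subunit of polymerase delta (1.88 in wild type and 0.98 in cko), and the clamp loader subunits Rfc2 (2.26 in wild type and 0.92 in cko) and Rfc4 (1.67 in wild type and 0.55 in cko) rose in both genotypes. Rfc2 read 1488 and 1414 at 12 h, against 305 and 277 at 2 h, but its 0 h arrays read 1804 and 1764. Ccne1, the cyclin of S phase entry, rose by 1.59 in wild type and 2.10 in cko. Against 0 h in wild type Ccne1 was -1.23 at 2 h and 0.36 at 12 h, the latter not called. Pcna, the sliding clamp, read 4265 and 4338 at 12 h, against 12557 and 11989.8 at 2 h, a difference of -1.51 (SE 0.06, adjusted p = 9.3e-11) with -0.48 in cko, and it was 1.15 above 0 h at 12 h. The other falls were Ccne2 (-1.19 in wild type and -1.09 in cko), Cdc45 (-1.16 in wild type and 0.12 in cko), Orc6 (-0.77 in wild type and -0.45 in cko), Rpa2 (-0.58 in wild type and -0.27 in cko), Pola2 (-0.48 in wild type and -0.11 in cko), Rfc3 (-0.44 in wild type and -0.37 in cko) and Cdt1 (-0.18 in wild type and -0.92 in cko). Among G2 and mitosis genes 4 of 24 rose and 8 fell (5 rose and 2 fell with the term for the division), and against 0 h 1 was higher and 15 were lower at 12 h.

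The G1 machinery moved both ways, and 58.8% of its 17 genes were called, close to the 57.3% of all genes. Ccnd2, the D cyclin that receptor signals induce, read 3985 and 3938 at 12 h, against 3866 and 3752 at 2 h and was not called (0.06), and against 0 h it was 1.58 at 2 h and 1.64 at 12 h. Of its 7 probe sets 2 were called higher and 3 lower in the wild type. Cdk4, its partner, was not called in the wild type either (0.10), and Ccnd3 was not called in the wild type (-0.02) but rose in cko (0.95). Cdkn1a, the CDK inhibitor p21, read 2103 and 2255 at 12 h, against 1015 and 857 at 2 h, a difference of 1.21 (SE 0.14, adjusted p = 4.7e-06). Against 0 h it was 2.92 at 2 h and 4.13 at 12 h, and its cko difference was 1.52. Of the 17 genes in the list 6 rose, among them Cdk6 (1.41 in wild type and -0.34 in cko), called in opposite directions in the genotypes. A second probe set of Cdk6 was called lower in the wild type. The 4 that fell were Cdkn2d (-1.61 in wild type and -0.60 in cko), Cdk2 (-1.59 in wild type and 0.07 in cko), Cdc25a (-1.05 in wild type and -0.32 in cko) and E2f5 (-0.64 in wild type and -0.78 in cko).

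In the BCL2 family 7 of 12 rose and 2 fell. The survival genes Bcl2l1, which encodes BCL-XL, and Bcl2 rose, with 2177 and 1777 at 12 h, against 857 and 858 at 2 h for Bcl2l1 and 2481 and 2587 at 12 h, against 1054 and 1052 at 2 h for Bcl2. Their differences were 1.18 (SE 0.17, adjusted p = 3.9e-05) and 1.25 (SE 0.06, adjusted p = 4.4e-10), and in cko cells 0.25, which was not called, and 0.69. Against 0 h the difference at 12 h was -0.99 for Bcl2 and 2.05 for Bcl2l1. Mcl1 rose by 0.36 in the wild type (-0.06 after quantile normalization) and was not called in cko (-0.06), and with the term for the division its difference was -0.13. Of its 6 probe sets 3 were called higher and 2 lower in the wild type. The proapoptotic Bak1 rose by 1.42 in wild type and was not called in cko (0.56), and with the term for the division it was 0.38. In 4 of the 12 family members, Bak1 among them, all 6 arrays above 5% for actin were lower than all 6 under it. Pmaip1, which encodes NOXA, fell in both genotypes (-1.62 in wild type and -0.91 in cko), and Bcl2l11, which encodes BIM, fell in wild type (-0.28) and rose in cko (0.38).

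Genes of B cell identity moved both ways. Of 24 follicular identity genes tested, 16 were lower than at 0 h at 2 h and 16 at 12 h, and between 12 h and 2 h 11 rose and 10 fell. Cd22, an inhibitory receptor of the antigen receptor complex, read 8236 and 8381 at 12 h, against 1925 and 1838 at 2 h, a difference of 2.13 (SE 0.05, adjusted p = 1.8e-12), with 0.90 in cko. Its 0 h arrays read 19388 and 20051, above both later times. Ikzf1 (1.81 in wild type and 0.88 in cko), Pou2f2 (1.62 in wild type and 0.00 in cko) and Pax5 (1.49 in wild type and 2.00 in cko), transcription factors of the lineage, rose as well, and Pou2f2 was not called in cko cells. The 10 that fell were Cr2, the complement receptor CD21 (-1.69 in wild type and -1.73 in cko), Ebf1 (-1.59 in wild type and -1.12 in cko), Ms4a1 or CD20 (-0.96 in wild type and 0.17 in cko), Irf8 (-0.77 in wild type and -0.34 in cko), Blk (-0.62 in wild type and -0.87 in cko), Cd55 (-0.50 in wild type and 0.26 in cko), Spib (-0.45 in wild type and -0.78 in cko), Fcer2a or CD23 (-0.43 in wild type and -0.25 in cko), Bach2 (-0.31 in wild type and -0.35 in cko) and Cd72 (-0.31 in wild type and -0.23 in cko). Cr2 and Fcer2a, whose proteins define the sort gate, were measured on all 12 arrays, with means at 12 h of 401 and 1553 and at 2 h of 1325 and 2106.

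Several other brakes on the receptor rose with Cd22. Of 17 inhibitory receptors and phosphatases 9 rose and 5 fell (median 0.39, and -0.07 with probe sets averaged). Dok3, an adaptor that limits calcium signals (1.79 in wild type and 0.77 in cko), Ptpn6, the phosphatase SHP-1 (1.59 in wild type and 0.68 in cko), and Cblb, a ubiquitin ligase (1.14 in wild type and -0.16 in cko), rose, and Cblb was not called in cko. The 5 that fell were Ptpn22 (-1.81 in wild type and -0.71 in cko), Inpp5d, the lipid phosphatase SHIP1 (-1.06 in wild type and -0.96 in cko), Csk (-0.58 in wild type and 0.62 in cko), Cd72 and Pag1 (-0.18 in wild type and -0.73 in cko), and Csk was called in the opposite direction in cko cells. In 7 of the 17 all 6 arrays above 5% for actin were lower than all 6 under it.

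Genes of MHC class II presentation fell more often than they rose, with 7 falls and 1 rise among 13 tested (median -0.41, and -0.36 in cko). Against 0 h, 10 were lower at 2 h and 11 at 12 h. Ciita, the coactivator that class II genes depend on, read 151 and 117 at 12 h, against 296 and 216 at 2 h, a difference of -0.85 (SE 0.17, adjusted p = 5.7e-04), with -0.85 in cko. Lgmn, a lysosomal protease (-2.39 in wild type and -0.41 in cko), Ifi30, a thiol reductase of antigen processing (-0.83 in wild type and -0.62 in cko), and H2-Oa, a brake on peptide exchange (-0.69 in wild type and -0.09 in cko), fell too, and of these Ifi30 was also called in cko cells. Cd74, the invariant chain, was the member that rose, and it fell in cko (0.37 in wild type and -0.18 in cko).

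Of 9 plasma cell genes 5 fell and 3 rose. Prdm1, which encodes BLIMP1, read 22.6 and 33.9 at 12 h, against 80.9 and 98.7 at 2 h, a difference of -1.26 (SE 0.25, adjusted p = 6.2e-04), and was not called in cko (-0.38). Jchain, the joining chain of secreted IgM (-1.64 in wild type and -0.78 in cko), and Ell2, an elongation factor of secreted immunoglobulin mRNA (-1.46 in wild type and -1.93 in cko), fell in both genotypes. The members that rose, all of them in both genotypes, were Creb3l2, a secretory pathway factor (1.22 in wild type and 0.83 in cko), Slamf7 (0.94 in wild type and 1.59 in cko) and Sdc1, the surface proteoglycan CD138 (0.84 in wild type and 0.63 in cko).

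Among SOCS genes and cytokine receptors 7 of 16 fell and 3 rose. Socs3, an inhibitor of JAK and STAT3 signalling, read 39.8 and 49 at 12 h, against 422 and 624 at 2 h, a difference of -3.14 (SE 0.25, adjusted p = 9.1e-08), with -3.04 in cko. Il21r, the receptor for a helper T cell cytokine, fell in both genotypes (-1.70 in wild type and -1.67 in cko), whereas Socs7 fell in wild type and rose in cko (-1.08 in wild type and 0.22 in cko). Ifngr1 fell in both (-1.02 in wild type and -0.44 in cko). The rises were Tnfrsf13b, the BAFF and APRIL receptor TACI (0.79 in wild type and 2.18 in cko), Socs5 (0.73 in wild type and 0.02 in cko) and Ifngr2 (0.54 in wild type and 0.42 in cko), and of these Tnfrsf13b was also called in cko.

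The p53 and GADD45 genes moved both ways, with 8 falls and 6 rises among 17 tested, and 5 of the falls and 5 of the rises were called in cko cells too. With the term for the division 5 fell and 6 rose. Plk2, a kinase induced by growth factors and by p53, fell in both genotypes (-2.58 in wild type and -2.69 in cko), as did Gadd45b, a stress protein that NF-κB induces (-1.75 in wild type and -1.85 in cko), and Gadd45a was not called in cko (-1.73 in wild type and -0.45 in cko). Phlda3, an inhibitor of AKT, read 270 and 249 at 12 h, against 32.6 and 61.6 at 2 h, a difference of 2.16 (SE 0.26, adjusted p = 4.9e-06), with 1.14 in cko. Beside Cdkn1a and Sesn1, given above, the other rises were Zmat3 (1.58 in wild type and 1.16 in cko), a regulator of splicing, Ccng1 (1.37 in wild type and 0.94 in cko), cyclin G1, and Tnfrsf10b (1.39 in wild type and -0.87 in cko), a death receptor that was not called in cko.

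Interferon-stimulated genes were low at both later times. Of 22 tested, 6 rose and 4 fell between 12 h and 2 h, and against 0 h 16 were lower at 2 h and 15 at 12 h. Xaf1, an apoptosis factor, read 415 and 358 at 12 h, against 21.1 and 40.5 at 2 h, a difference of 3.13 (SE 0.18, adjusted p = 2.5e-09), but its 0 h arrays read 1894 and 1719. Stat2, which carries the interferon signal to the nucleus, rose in both genotypes (1.76 in wild type and 1.66 in cko). The falls were Rsad2, the antiviral protein viperin (-1.77 in wild type and -1.19 in cko), Ifit1 (-1.41 in wild type and -0.38 in cko), Gbp3 (-0.86 in wild type and 0.55 in cko) and Ifi27 (-0.38 in wild type and 0.04 in cko), and of these Rsad2 was also called lower in cko.

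Several of the largest falls were of genes in none of these lists. Hes1, a repressor downstream of NOTCH, read 13.2 and 2.6 at 12 h, against 263 and 237 at 2 h and fell in both genotypes (-3.51 in wild type and -2.93 in cko). Tnfrsf12a, the receptor of TWEAK, fell in both too (-3.53 in wild type and -1.95 in cko), as did Mir22hg, the host transcript of a microRNA (-3.73 in wild type and -1.88 in cko), and Neurl3, a ubiquitin ligase (-3.39 in wild type and -0.95 in cko). Rpl22l1, a paralog of ribosomal protein L22, read 312 and 218 at 12 h, against 5942 and 5666 at 2 h, a difference of -4.39 (SE 0.12, adjusted p = 4.3e-12), with -0.71 in cko. Thoc2, an mRNA export factor (-4.01 in wild type and -0.62 in cko), Tmod3, a capping protein of actin filaments (-4.14 in wild type and -0.87 in cko), and Epm2aip1 (-3.41 in wild type and -0.67 in cko) fell as well. Each of these genes except Hes1 had all 6 arrays above 5% for actin higher than all 6 under it.

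Among the largest rises outside the lists, Psrc1, a spindle protein, read 329 and 427 at 12 h, against 1 and 14.5 at 2 h and rose in both genotypes (4.10 in wild type and 2.36 in cko). Hmgn3, a nucleosome binding protein, read 5255 and 5537 at 12 h, against 404 and 418 at 2 h (3.66 in wild type and 2.98 in cko). Spata24 (3.21 in wild type and 2.20 in cko), Cep131 (3.19 in wild type and 1.73 in cko), Abca7 (3.16 in wild type and 1.08 in cko), Ap3s2 (3.13 in wild type and 2.01 in cko), Ssh1 (3.12 in wild type and 1.55 in cko), Lynx1 (3.46 in wild type and 1.80 in cko) and Fam53b (3.07 in wild type and 1.90 in cko) rose in both as well. Several of these genes had fallen by 2 h. Against 0 h in wild type, Abca7 was -3.51 at 2 h and -0.35 at 12 h. Cep131 was -2.93 at 2 h and 0.27 at 12 h, the latter not called. Hmgn3 (2.36), Ap3s2 (1.57), Lynx1 (1.27) and Fam53b (0.48) were also below 0 h at 2 h but above it at 12 h, by the values in brackets. Macroh2a3 (3.66 in wild type and 0.36 in cko), a histone variant, St3gal3 (3.38 in wild type and 0.53 in cko), a sialyltransferase, and Bcl6b (3.11 in wild type and 0.70 in cko), a repressor related to BCL6, were not called in cko cells. The 2 h signals of Psrc1, Macroh2a3, St3gal3 and Bcl6b averaged 7.7, 8.5, 13.8 and 6.8, below the added constant of 16, so the size of these differences rests on that constant. Macroh2a3 passed the filter on dim signals through its wild-type 12 h arrays alone, and its values are a description.

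The inducible HSP70 genes Hspa1a and Hspa1b, nearly identical copies whose probe sets may share transcripts, had the lowest differences between the genotypes' steps. Hspa1a was not called (-0.12) and Hspa1b was called lower (-0.36) in the wild type, and both fell in cko (-3.82 and -3.65). Hspa1a read 129 and 69.2 at 12 h, against 1714 and 1416 at 2 h in cko cells, while wild-type cells read 1075 and 1169.8 at 12 h, against 1049.8 and 1423 at 2 h. Tmod1, another tropomodulin, rose in wild type and fell in cko (2.02 in wild type and -0.99 in cko). Zfx itself read 1013 and 962 at 12 h, against 809.6 and 789.6 at 2 h in the wild type, a difference of 0.30 (SE 0.09, adjusted p = 0.011), and 1237 and 1341 at 12 h, against 974 and 1035 at 2 h in cko cells. The sources used here do not give where its probe sets lie relative to the part deleted, and neither of its other 2 probe sets was called, so Zfx does not check the labels.

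The balance of rises and falls in the remaining lists is given for the wild type, the cko cells and the fit with the division term. Of all genes tested, 35.3% rose and 22% fell in the wild type, and 30.2% and 18.7% in cko cells. With the term for the division the shares were 26.2% and 16.3%. Heat shock genes gave 7 rises and 7 falls among 21, against 1 and 10 in cko cells and 0 and 7 with the term for the division. Cytosolic ribosomal proteins gave 13 rises and 5 falls among 22, against 10 and 0 in cko cells and 6 and 0 with the term for the division. Genes of the unfolded protein response gave 9 rises and 14 falls among 27, against 9 and 5 in cko cells and 5 and 3 with the term for the division. Heat shock genes thus had an even balance in the wild type and mostly falls in cko cells. For the unfolded protein response falls outnumbered rises in the wild type but not in cko cells. The fit with the division term takes its 12 h value from the cko arrays, so its counts are not a further check. Aminoacyl-tRNA synthetases gave 10 rises and 7 falls among 19, against 8 and 7 in cko cells and 6 and 7 with the term for the division. Purine and pyrimidine synthesis gave 8 rises and 7 falls among 21, against 8 and 5 in cko cells and 8 and 5 with the term for the division. Splicing factors gave 9 rises and 12 falls among 26, against 7 and 13 in cko cells and 3 and 11 with the term for the division. Translation initiation factors gave 10 rises and 11 falls among 24, against 6 and 10 in cko cells and 5 and 7 with the term for the division. Lysosome and autophagy genes gave 12 rises and 9 falls among 27, against 8 and 5 in cko cells and 7 and 5 with the term for the division. GIMAP GTPases gave 4 rises and 3 falls among 8, against 2 and 3 in cko cells and 2 and 3 with the term for the division.

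**Figure D5:**
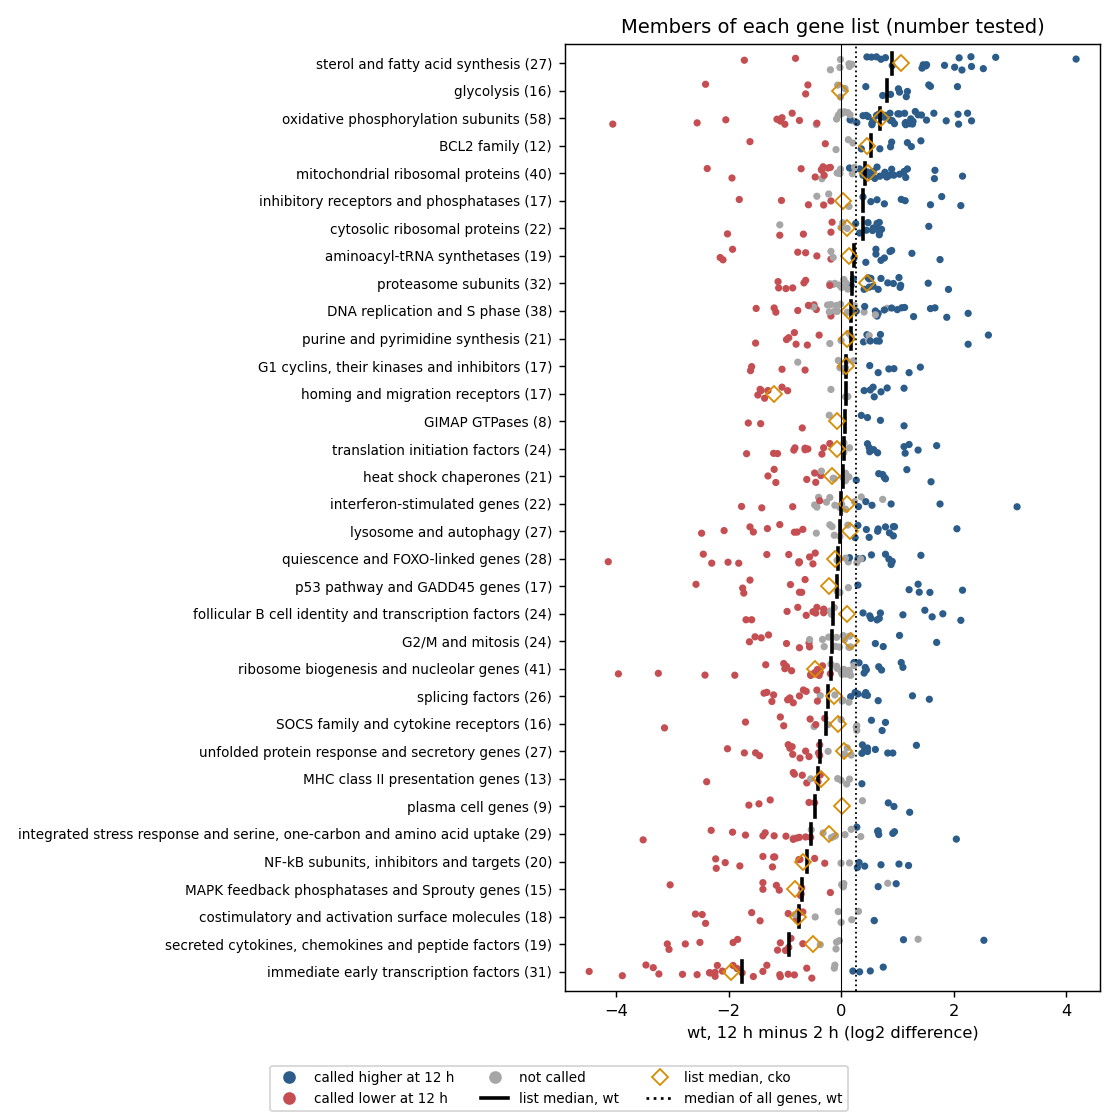
Wild-type difference between 12 h and 2 h (log2, x axis) of every tested member of 34 gene lists (number in brackets), coloured by call, with the list medians of wild type (bar) and cko (diamond) and the median of all genes (dotted line). The immediate early factors stand lowest and sterol and fatty acid synthesis highest, and the medians of the 2 genotypes lie apart for glycolysis (0.81 in wild type and -0.02 in cko) and homing receptors (0.08 in wild type and -1.19 in cko).

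Markers of other cells in the spleen were measured as well. The summed signal of the 13 tested T and NK cell markers was 919 to 1154 at 12 h, against 1699 to 1805 at 2 h, with 2 higher and 5 lower. In cko cells 3 were higher and 2 lower, and with the term for the division 2 and 1. For 12 markers of monocytes, macrophages and dendritic cells it was 1495 to 1636 at 12 h, against 1973 to 2023 at 2 h with 2 higher and 3 lower, against 3 and 2 in cko cells and 1 and 2 with the term for the division. For 8 neutrophil markers it was 7448 to 8353 at 12 h, against 16370 to 16403 at 2 h, with 0 higher and 5 lower (median -0.80). In cko cells 3 were higher and 1 lower (median 0.08), and with the term for the division 2 were higher and 0 lower (median -0.04). Both take their 12 h value from the cko 12 h arrays, so they are not separate comparisons. Camp, a granule protein of neutrophils, read 293 and 247 at 12 h, against 2513 and 2530 at 2 h, and cko cells read 929.5 and 886 at 12 h, against 473 and 449 at 2 h, so its difference of -3.15 in wild type stood against 0.95 in cko. S100a8 and S100a9, neutrophil calcium binding proteins, fell in wild type, S100a8 with -0.61 in wild type and -0.11 in cko and S100a9 with -1.50 in wild type and -0.02 in cko, and neither was called in cko. Of 5 erythroid markers 0 rose and 2 fell (2 and 2 with the term for the division), and of 9 markers of marginal zone and B1 B cells 1 rose and 4 fell (3 and 2 with that term). Cxcl2 (-3.09), Il1b (-2.77) and Klf4 (-4.14) fell in the wild type, and they fell in cko cells too (-3.34, -2.18 and -3.80). Whether cells other than B cells contributed to these values was not tested. Cd3e, of the T cell receptor complex, averaged 7.3 at 12 h and 11.9 at 2 h, below the added constant. Cd2, an adhesion molecule of T cells that mouse B cells also carry, fell (-2.87 in wild type and -1.35 in cko). Cd14, a lipopolysaccharide receptor of monocytes, fell too (-2.79 in wild type and -1.02 in cko). In wild type Cd2 averaged 91.6 at 12 h and 769.7 at 2 h, and Cd14 averaged 60.1 at 12 h and 484.3 at 2 h. Cd2 alone made up most of the wild-type fall in the summed T and NK cell signal. Cd14 alone did so for the summed signal of monocytes, macrophages and dendritic cells.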

How the data were processed

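RNA of splenic follicular B cells was measured on Affymetrix Mouse 430 2.0 arrays, 2 for each of 2 genotypes at 0, 2 and 12 h of anti-IgM. The deposited values are intensity signals on a linear scale, made with GCOS 1.4 per the submitters' processing notes, and in the file each array has a 2% trimmed mean of 250. The sources used here hold no detection calls. Signals were taken as log2(signal + 16). Control probe sets, those with no gene symbol (9160) or several (932), and those at or under the 40th percentile of the mean were left out, and the brightest remaining probe set stood for a gene, which gave 12190 genes. Names came from the platform annotation, updated through RefSeq (99.4% matched). Of the called genes with several probe sets, 23.2% had one called in the opposite direction. Among the named genes these included Asns, Bop1, Foxo1, Foxp1, Heatr1, Hsd17b7, Ifngr2 and Mrps14, beside those given in the text.

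A limma fit (version 3.58.1, R 4.3.3) with 1 mean for each of 6 groups, 6 residual degrees of freedom and an intensity trend gave all two-sided tests, adjusted by Benjamini-Hochberg over all genes. The scripts were tested on simulated data. Duplicates correlated at 0.983 to 0.989, and the number of arrays limits the precision. Alternatives covered normalization, the constant, the filter, probe sets, weights, the arrays fitted, a replicate block, arrays left out, a term for the control probes and a fold threshold.

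The arrays compared and the 39 gene lists (842 of 936 entries tested) were chosen with earlier results of these data known. Named genes are the 15 largest rises and falls with groups that do not overlap, the 4 largest called changes of each list described and its members called against the majority, the 4 largest genotype differences each way, and a set of known response genes. Another 34 genes were named after their values were seen, to complete a pathway or a group. Promoters are RefSeq sequences on GRCm38.p6. The step of cko cells was taken from the same fit.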

Additional observations from a re-analysis of the deposited data

Results flagged for a closer look

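The step between 12 h and 2 h differed between the genotypes, by the limma test of the difference itself (adjusted p under 0.05), for 178 of the 270 genes named with values, and for 35.3% of all genes tested. Each value in brackets is the cko step minus the wild-type step on the log2 scale. For Il6 and Macroh2a3, which passed the filter on dim signals through 1 group alone, the value is a description. Of these differences 83 were above 0 and 95 below 0. The wild-type step crosses the division of the control probes and the cko step does not, so genotype and the division cannot be told apart in these differences. 

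Among the genes with a difference above 0, in order of size, were Il6 (4.17), Camp (4.11), Uqcrh (4.04), Rpl22l1 (3.68), Thoc2 (3.39), Cebpb (3.29), Ndufs4 (3.28), Tmod3 (3.27), Nop58 (3.18), Epm2aip1 (2.74), Neurl3 (2.44), Sdhd (2.22), Nop14 (2.16) and Ndufa4 (2.12). Then followed Lgmn (1.98), Nop16 (1.96), Mrpl50 (1.94), Psmb7 (1.93), Mir22hg (1.85), Msmo1 (1.79), Ypel3 (1.79), Cd14 (1.77), Cdk2 (1.66), Mrpl27 (1.62), Atp5o (1.60), Tnfrsf12a (1.58), Mrpl32 (1.57) and Cd2 (1.52). Smaller positive differences were those of S100a9 (1.49), Psma7 (1.42), Psma4 (1.42), Gbp3 (1.41), Atf4 (1.39), Tnfrsf13b (1.39), Fdps (1.37), Socs7 (1.29), Atp5e (1.29), Cdc45 (1.28), Gadd45a (1.28), Psma1 (1.22), Csk (1.20) and Mrps33 (1.20). In the same direction came Traf1 (1.19), Ndufa6 (1.17), Ndufs1 (1.15), Psmd6 (1.14), Ms4a1 (1.13), Ptpn22 (1.09), Atp5b (1.08), Pcna (1.03), Ifit1 (1.03), Cdkn2d (1.01), Ebp (1.0), Ccnd3 (0.97), Myc (0.95) and Mrpl35 (0.93). Next in size were Jchain (0.87), Ebi3 (0.83), Cd55 (0.75), Cdc25a (0.73), Mrps18b (0.65), Slamf7 (0.65), Bcl2l11 (0.65), Sc5d (0.63), Nfkbid (0.61), Tob1 (0.61), H2-Oa (0.60), Klf2 (0.58), Ifngr1 (0.58) and Psmd12 (0.55). The remaining ones of this direction included Ddit4 (0.54), Tnfaip3 (0.53), Pax5 (0.51), S100a8 (0.50), Ebf1 (0.47), Scd1 (0.47), Irf8 (0.43), Ifi27 (0.42), Mrps2 (0.40), Mrpl16 (0.40), Cdk4 (0.37), Foxp1 (0.21) and Ifi30 (0.21).

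Among the genes with a difference below 0, in order of size, were Hspa1a (-3.70), Hspa1b (-3.29), Macroh2a3 (-3.29), Tmod1 (-3.01), St3gal3 (-2.85), Bcl6b (-2.41), Tnfrsf10b (-2.26), Mmab (-2.20), Abca7 (-2.08), Dhcr7 (-1.82), Cdk6 (-1.75), Psrc1 (-1.74), Hk1 (-1.69) and Gpr183 (-1.68). After these came Lynx1 (-1.66), Pou2f2 (-1.62), Mvd (-1.62), Nfkb2 (-1.61), Ssh1 (-1.57), Cdkn1b (-1.51), Bop1 (-1.37), Rfc2 (-1.34), Cblb (-1.30), Mrpl2 (-1.29), Cd22 (-1.23), Nfkbie (-1.23), Fam53b (-1.17) and Ndufa12 (-1.16). Smaller negative differences were those of Fosb (-1.15), Cd83 (-1.13), Egr2 (-1.12), Rfc4 (-1.11), Maff (-1.11), Ap3s2 (-1.11), Rgs1 (-1.08), Dusp1 (-1.06), Lss (-1.06), Pmvk (-1.05), Dok3 (-1.03), Acaca (-1.03), Spred1 (-1.03) and Phlda3 (-1.03). Of the same sign were Icosl (-1.02), Spata24 (-1.01), Ndufv1 (-0.97), Fos (-0.97), Cd274 (-0.95), Xaf1 (-0.95), Bcl2l1 (-0.93), Ikzf1 (-0.93), Ptpn6 (-0.91), Pold1 (-0.90), Psmb6 (-0.90), Nop2 (-0.88), Phgdh (-0.86) and Irf4 (-0.85). Closer to 0 lay Mybbp1a (-0.82), Ndufs8 (-0.79), Egr3 (-0.77), Cdt1 (-0.74), Insig1 (-0.73), Pfkl (-0.73), Socs5 (-0.71), Foxo1 (-0.70), Hmgn3 (-0.68), Tnip1 (-0.68), Polr1c (-0.68), Mrps14 (-0.68), Acly (-0.67) and Psmb3 (-0.64). The list went on with Shmt2 (-0.62), Klf13 (-0.62), Psat1 (-0.58), Bcl2 (-0.57), Polr1a (-0.56), Hsd17b7 (-0.56), Pag1 (-0.55), Atp5d (-0.54), Cd74 (-0.54), Aldh18a1 (-0.51), Nfkbia (-0.49), Rela (-0.49), Ell2 (-0.46) and Zfp36l1 (-0.45). The smallest of them were Ccng1 (-0.44), Cxcr4 (-0.43), Mcl1 (-0.42), Nr4a1 (-0.37), Nop10 (-0.37), Spib (-0.33), Cox6b1 (-0.31), Dusp2 (-0.28), Nhp2 (-0.26), Blk (-0.25) and Hmgcs1 (-0.23).

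No group had 4 or more arrays, and single arrays were not tested against the rest of their group.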

How the results depend on the processing

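Counts of called genes were 6488 to 7080 for the wild-type step under the other normalizations, constants, filters on dim signals, variance settings, array weights, choices of arrays and averaged probe sets, against 6981 as reported. With a term for the division of the control probes 5181 were called, for a difference that the wild-type 12 h arrays do not enter. With every probe set in place of 1 per gene they were 11863 for the wild-type step, 9601 for the cko step and 7134 for the difference of the steps, since more features were tested. With a fold of at least 2 required they were 3123, 2048 and 1635 in the same order. With duplicate arrays averaged, a setting added after the data were seen in which both genotypes share 1 time effect, 1794 genes were called (3699 at an unadjusted p under 0.05), of which 1778 were called in the same direction as reported. Leaving out 1 array at a time, which leaves a group with a lone array taken to vary as the other groups do, gave 6172 to 6275 calls for the wild-type step, 5078 to 5210 for the cko step and 3644 to 3877 for their difference. The calls of Asns, Bcl2l11, Bop1, Ebi3, Fasn, Foxp1, Hspa1b, Icosl, Ifngr2, Il6, Mrpl46, Mrps18b, Mrps2, Mrps30, Pag1, Pola2, Rfc3, Rgs16, Sc5d, Spry1, Srebf2, Srf, Tnfrsf10b, Zfp36l1 and Zfx changed in at least 1 of these cases. With the replicate number as a block, 6961 genes were called for the wild-type step, 5953 for the cko step and 4279 for their difference, and the named genes that lost their call were Mrpl46 (adjusted p = 0.052) and Pag1 (adjusted p = 0.053). Deviations of same-numbered arrays correlated at -0.01 in the wild type and at 0.01 in cko. With 2 arrays a group this cannot tell whether same-numbered arrays share mice or a processing run. Of the values of named genes recomputed under these settings, 4615 kept their direction and their side of the threshold, 404 kept the direction and lost the call, 10 gained a call and 89 of called genes changed direction. These are given by setting, and the cause was not tested. With the term for the division, whose difference the wild-type 12 h arrays do not enter, 55 named genes changed direction. From low to high these were Bop1 (-1.02), Tnfrsf10b (-0.74), Nop2 (-0.53), Tmod1 (-0.53), Nfkb2 (-0.51), Egr2 (-0.49), Nfkbie (-0.44), Cdkn1b (-0.43), Zfp36l1 (-0.38), Cblb (-0.37), Icosl (-0.37), Polr1c (-0.26), Cd74 (-0.24), Spred1 (-0.19), Mybbp1a (-0.17), Cdk6 (-0.17) and Nfkbia (-0.16), then Mcl1 (-0.13), Nhp2 (-0.13), Rela (-0.11), Srf (-0.09), Hk1 (-0.08), Pou2f2 (-0.01), Tnip1 (0.00), Mrpl46 (0.00), Mrps2 (0.05), Cdc45 (0.07), Cdk2 (0.07), Mrpl16 (0.10), Ndufs1 (0.14), Socs7 (0.14), Cd55 (0.16), Ms4a1 (0.17) and Bcl2l11 (0.25), and then Atp5b (0.29), Psma4 (0.31), Mrps18b (0.31), Sdhd (0.33), Psma7 (0.43), Psma1 (0.45), Psmd6 (0.47), Mrpl35 (0.54), Mrps33 (0.60), Gbp3 (0.63), Ndufa6 (0.65), Camp (0.68), Csk (0.69), Ndufs4 (0.74), Atp5e (0.80), Ndufa4 (0.92), Atp5o (0.99), Psmb7 (1.02), Mrpl27 (1.18), Msmo1 (1.32) and Il6 (2.81). With a gene's probe sets averaged there were 15, namely Nhp2 (-0.87), Bop1 (-0.73), Foxp1 (-0.54), Nfkbia (-0.43), Zfp36l1 (-0.32), Zfx (-0.32), Ifngr2 (-0.21), Polr1c (-0.19), Mcl1 (-0.18), Egr2 (-0.17), Heatr1 (-0.06), Psmd6 (0.07), Bcl2l11 (0.08), Socs7 (0.21) and Egr3 (0.71). With duplicates averaged there were 12, namely Bop1 (-0.36), Egr2 (-0.05), Nop2 (-0.03), Zfp36l1 (-0.01), Csk (0.02), Mrps18b (0.02), Bcl2l11 (0.05), Msmo1 (0.08), Mrpl35 (0.12), Atp5e (0.22), Mrpl27 (0.35) and Il6 (1.19). After quantile normalization there were 6, namely Foxp1 (-0.27), Cd74 (-0.24), Nfkbia (-0.22), Nhp2 (-0.21), Zfp36l1 (-0.07) and Mcl1 (-0.06), and with arrays scaled to 1 median there was 1, Foxp1 (-0.05). The number of list members called in the main direction moved by over 1.5 times in 114 of 780 cases, among them 36 with duplicates averaged, 33 with a fold of at least 2, 18 with every probe set and 15 with the term for the division. The term for the division and the mean of duplicates could not be fitted for the difference of the steps, and single genes have no value with every probe set. Signal without a detection call limits what can be said of dim genes, and 2 arrays a group limit the precision.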
